A study of Saccharomyces cerevisiae with 12 samples.

Results

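The YAP family of budding yeast (Saccharomyces cerevisiae) consists of transcription factors of the basic leucine zipper (bZIP) type that resemble the founding member, Yap1. Transcripts of 7 family members were followed here: YAP1 (locus YML007W), CAD1 (YDR423C, also called YAP2), YAP3 (YHL009C), CIN5 (YOR028C, also called YAP4), YAP5 (YIR018W), YAP6 (YDR259C) and YAP7 (YOL028C). They were chosen by gene symbol, and ARR1, the remaining relative, was left out of the count and is given separately. All 7 of 7 members were measured, each by 1 probe set, among 5449 genes in all. Transcript levels come from 12 Affymetrix expression arrays, 3 in each of 4 groups. All cells were of the strain BY4741 and grew exponentially in the rich medium YEPD at 30 °C. The groups were wild type untreated, wild type after 2 h with 100 µM sodium arsenate, slt2-deficient untreated, and slt2-deficient after 2 h with 100 µM sodium arsenate. SLT2 encodes the MAP kinase through which yeast answers cell wall damage. Replicates are called independent by the submitters, but nothing says that they were separate cultures; the p-values therefore reflect the spread of these samples only, which may be technical. Arsenate and culture time cannot be told apart, because the treated cultures were 2 h older.

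YAP proteins bind short related DNA elements, and members answer to different stresses. Yap1 is the main activator of genes against oxidants and drugs: the exportin Crm1 removes it from the nucleus until oxidation of its cysteines hides the export signal, so its activity is set largely by where it sits in the cell. Cad1 was found through cadmium resistance, Cin5 and Yap6 through salt tolerance, Yap5 senses high iron, Yap7 represses the nitric oxide-detoxifying flavohemoglobin gene YHB1, and Yap3 is less well characterised. Arsenate enters yeast as a phosphate analogue and is reduced to arsenite. The relative Arr1 is the specialised regulator of arsenic detoxification genes.

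The arrays were checked before the members were read. The SLT2 signal lay between 10.66 and 11.01 (log2 units, as all levels below) on the 6 wild-type arrays and between 5.22 and 5.81 on the 6 slt2 arrays. LEU2, URA3 and MET17, which are deleted in BY4741, lay between 3.74 and 5.47. Like SLT2 on the slt2 arrays, at up to 5.81, they show the signal of absent transcripts, which differed between these genes. Markers of mating type a lay between 7.90 and 13.68 and those of mating type alpha between 5.05 and 9.46. Spread differed between the groups: the median SD of a gene over 3 arrays was 0.21 (untreated) and 0.49 (arsenate) in wild type, and 0.08 and 0.07 in the matching slt2 groups. Wild-type arsenate array 1 stood apart, with a correlation across genes of 0.621 to 0.779 with the other arrays, against 0.996 to 0.998 within the slt2 groups. On that array the median of 20 general stress genes was 3.85 when set against wild-type untreated arrays 1 and 3 (their mean), and that of 20 ribosome biogenesis genes was -3.76 on the same scale. The median of 11 glucose-repressed genes was 4.90 there, against -0.53 to 0.48 on the other 11 arrays. Wild-type untreated array 2 and wild-type arsenate array 2 had the largest 3' minus 5' signal of control transcripts, a measure that rises when RNA is shortened, at 1.59 and 1.79 against 0.92 to 1.17 on the other 10 arrays. Their general stress medians were 1.74 and 2.73 on the same scale, and those of the slt2 arrays 0.02 to 0.58. The part of these differences in the members' values was not tested.

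YAP1 encodes the regulator of the oxidant response. In untreated wild type the 3 arrays gave 9.95, 9.23 and 9.93, and with arsenate 10.40, 9.21 and 9.74. In slt2 cells the untreated arrays gave 9.98, 9.85 and 9.76 and the arsenate arrays 9.67, 9.74 and 9.57. Both wild-type arrays numbered 2 were the lowest of the 12, the wild-type groups overlapped, and all 3 slt2 arsenate arrays lay below all 3 untreated slt2 arrays by a small margin. CAD1, whose overproduction gives cadmium resistance, was at 9.62, 9.76 and 9.78 in untreated wild type and at 11.88, 9.97 and 9.79 with arsenate. Its slt2 arrays gave 9.85, 9.45 and 9.69 untreated and 9.85, 9.77 and 9.82 with arsenate. CAD1 was thus level on 11 arrays, between 9.45 and 9.97, and high on wild-type arsenate array 1 alone.

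CIN5 and YAP6 are the pair linked to salt and osmotic stress. The CIN5 signal was 8.21, 8.13 and 8.71 in untreated wild type and 9.07, 7.48 and 8.96 with arsenate. Its slt2 arrays gave 8.30, 8.03 and 8.27 untreated and 8.28, 8.34 and 8.44 with arsenate. The 3 wild-type arsenate arrays of CIN5 held both its highest values and its lowest, so that their SD was 0.89 against 0.08 in arsenate-treated slt2. YAP6 had the widest range of the family, 2.83 over the 12 arrays. Untreated wild type gave 6.86, 5.05 and 6.65 and arsenate-treated wild type 7.88, 5.998 and 6.76. The slt2 values were 6.29, 5.95 and 6.04 untreated and 6.31, 6.39 and 6.004 with arsenate. On wild-type untreated array 2 the YAP6 signal was inside the range of the deleted genes, and on wild-type arsenate array 1 it was the highest of the 12.

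YAP5, the iron sensor, gave 7.34, 7.14 and 7.72 in untreated wild type and 7.81, 7.37 and 7.48 with arsenate. In slt2 cells it gave 7.91, 7.79 and 7.90 untreated and 7.73, 7.55 and 7.83 with arsenate. All 3 untreated slt2 arrays lay above all 3 untreated wild-type arrays, while the arsenate-treated genotypes overlapped. YAP7, the repressor of YHB1, gave 8.76, 7.47 and 8.58 in untreated wild type and 8.03, 7.59 and 8.85 with arsenate. Its slt2 values were 8.87, 8.51 and 8.74 untreated and 8.84, 8.80 and 8.87 with arsenate. The wild-type arrays numbered 2 were the 2 lowest for YAP7, and wild-type arsenate array 1 came next. YAP3 was the steadiest member: all 12 arrays lay between 8.96 and 9.29, a range of 0.33 against a median of 1.23 for all genes. Its group means were 9.09 ± 0.11 (SD, n = 3) and 9.12 ± 0.16 in untreated and treated wild type, and 9.19 ± 0.10 and 9.21 ± 0.05 in slt2. None of the neighbouring group means of YAP3 differed beyond these SDs.

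By group mean, YAP1 ran from 9.86 ± 0.11 (SD, n = 3 in each group) in untreated slt2 through 9.78 ± 0.60 in arsenate-treated and 9.70 ± 0.41 in untreated wild type to 9.66 ± 0.09 in arsenate-treated slt2. CAD1 was at 10.54 ± 1.16 in arsenate-treated wild type, then 9.81 ± 0.04 in arsenate-treated slt2, 9.72 ± 0.09 in untreated wild type and 9.66 ± 0.20 in untreated slt2. CIN5 and YAP6 had the same group on top, arsenate-treated wild type, at 8.50 ± 0.89 and 6.88 ± 0.95, and the same group at the bottom, untreated slt2, at 8.20 ± 0.15 and 6.09 ± 0.18. The order was another for the next pair. YAP5 ran from 7.87 ± 0.06 in untreated and 7.71 ± 0.14 in arsenate-treated slt2 to 7.55 ± 0.23 in arsenate-treated and 7.40 ± 0.29 in untreated wild type. YAP7 ran from 8.84 ± 0.03 in arsenate-treated and 8.71 ± 0.18 in untreated slt2 to wild type, at 8.27 ± 0.70 untreated and 8.16 ± 0.64 with arsenate. Neighbours in each order differed by less than the larger of their SDs, except the slt2 groups of YAP5, which lay 0.16 apart, and arsenate-treated slt2 and untreated wild type for CAD1, where the gap and the larger SD both rounded to 0.09.

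**Figure D1:**
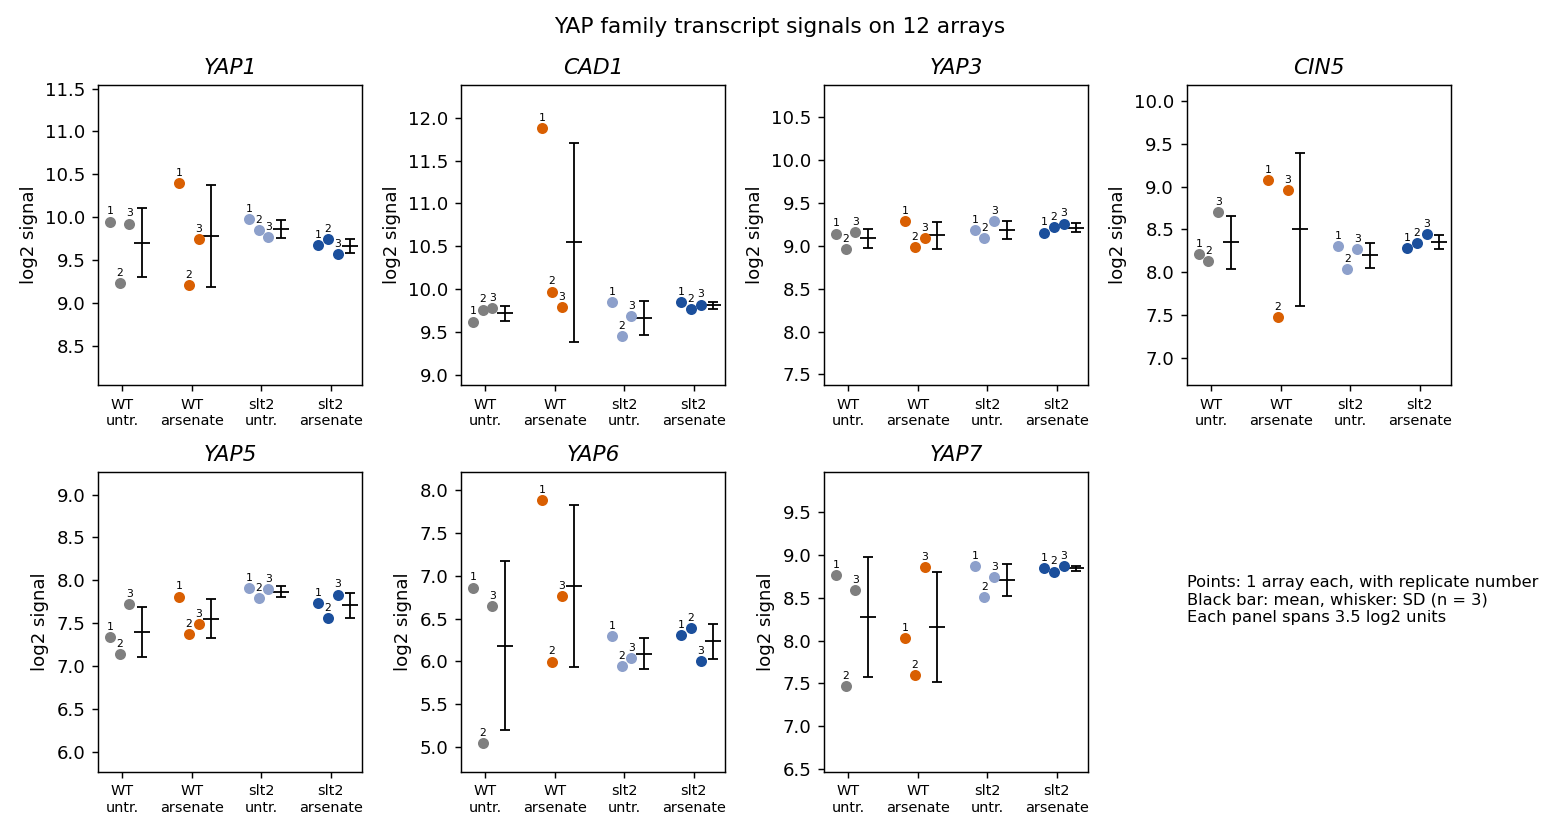
Log2 signal of the 7 YAP family transcripts on each of the 12 arrays, by group, with the group mean. The slt2 arrays lie within 0.44 of each other for every member. The wild-type arrays span more for each, though little more for YAP3 (0.33 against 0.20). For CAD1 the wider span comes from wild-type arsenate array 1 alone, at 11.88.

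Array by array, 5 of the 7 members had their highest signal of the 12 arrays on wild-type arsenate array 1, as did 45.3% of all genes. The lowest of the 6 wild-type arrays was one numbered 2 for 6 of the 7 members and for 37.4% of all genes. For 5 of the 7 both wild-type arrays numbered 2 were the 2 lowest, against 18.9% of all genes. Among the slt2 arrays the members kept within 0.20 (YAP3) to 0.44 (YAP6), where the median range of all genes was 0.257. Slt2 untreated array 2 was the lowest slt2 array for 5 of the 7 members and for 54.1% of all genes. Its array median was 9.98, against 10.09 to 10.12 on the other slt2 arrays.

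**Figure D2:**
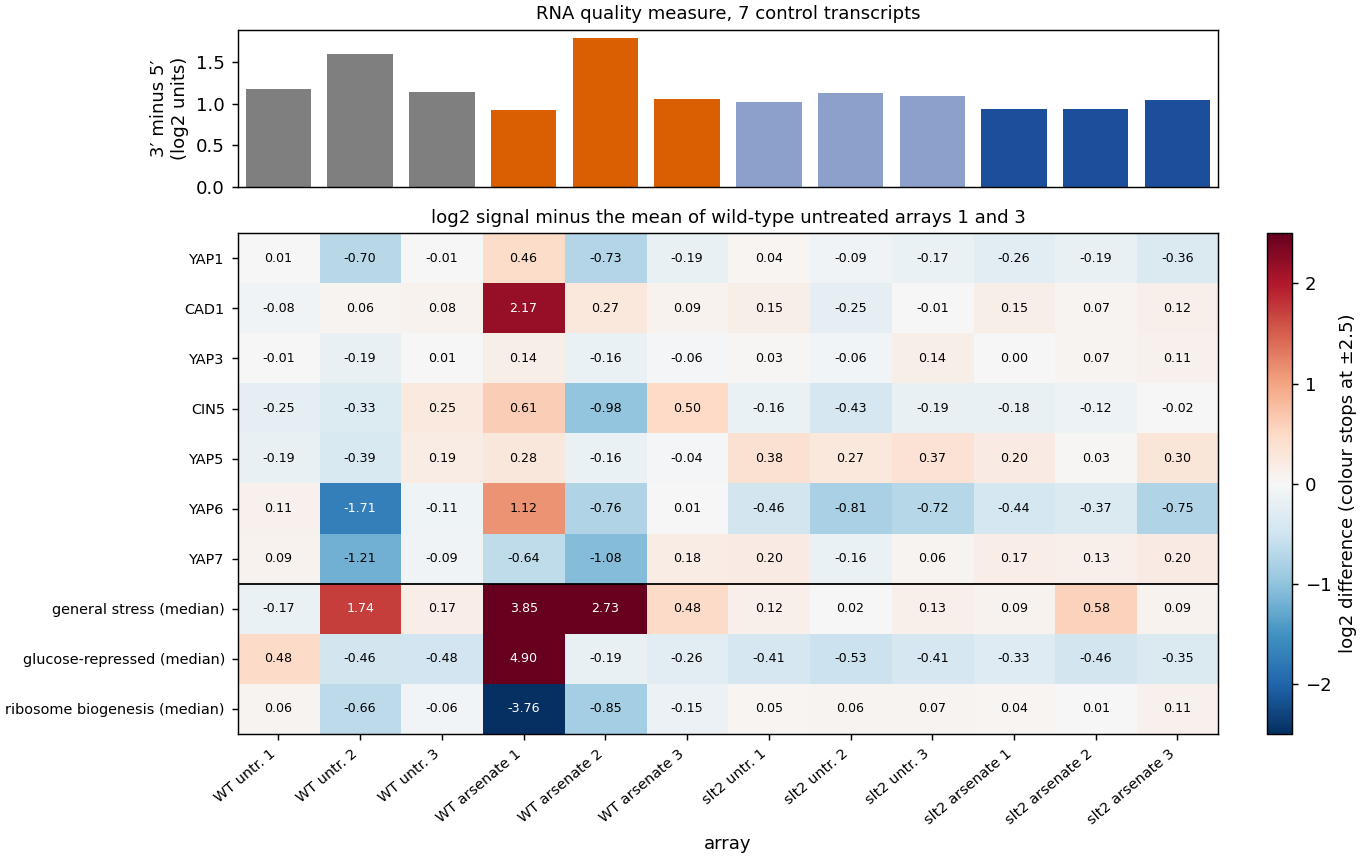
Members and gene lists on each array, relative to wild-type untreated arrays 1 and 3, with the 3' minus 5' measure of control transcripts. CAD1 reaches 2.17 and the general stress median 3.85 on wild-type arsenate array 1, and YAP6 lies at -1.71 and YAP7 at -1.21 on wild-type untreated array 2, where the 3' minus 5' measure is 1.59.

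The first comparison asked whether arsenate changed YAP family transcripts in wild type. No member passed the threshold, an adjusted p under 0.05 (limma, Benjamini-Hochberg over all genes), as against 0.0184% of all genes, which is 1 gene. At an unadjusted p under 0.05 the count was also 0 of 7, against 12.8% of all genes. CAD1 had the largest difference, 0.82 (SE 0.44, 95% interval -0.16 to 1.80, adjusted p = 0.299), and YAP6 came next with 0.69 (SE 0.52, adjusted p = 0.366). CAD1 was also the 1 member whose groups did not overlap, a separation seen in 8.57% of all genes. Without wild-type arsenate array 1 the CAD1 difference was 0.16 (adjusted p = 0.724) and that of YAP6 was 0.19. The YAP6 difference was 0.13 without wild-type untreated array 2 and 1.13 without wild-type arsenate array 2. The other 5 members differed by -0.11 (YAP7) to 0.16 (YAP5). YAP1 differed by 0.08 (SE 0.28, adjusted p = 0.848) and by -0.23 without wild-type arsenate array 1. CIN5 differed by 0.15 with that array and by -0.13 without it. YAP1 differed by 0.37 and CIN5 by 0.67 (adjusted p = 0.213) when wild-type arsenate array 2 was left out. YAP7 differed by -0.51 without wild-type untreated array 2 and by 0.17 without wild-type arsenate array 2. The median over the 7 members was 0.15, and that of all genes 0.06. The intervals differed in width between members, from -0.23 to 0.30 for YAP3 to -0.46 to 1.85 for YAP6. A change inside a member's own interval was not excluded by these arrays. RNA came from whole cultures, so a change in every cell and a change in a share of the cells cannot be told apart.

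The same comparison in slt2 cells bounded the members far more closely. In the fit to all 12 arrays 0 of 7 were called, against 0.0367% of all genes, at unadjusted p under 0.05 also 0 of 7 against 1.3%, and the adjusted p of each rounded to 1.0. That fit takes its spread from the wild-type arrays as well, so the 6 slt2 arrays were also fitted alone. There, too, 0 of 7 members were called, against 2.46% of all genes, which is 134 genes, 104 higher (1.91%) and 30 lower (0.551%). YAP1 had the largest difference, -0.20 (SE 0.07, 95% interval -0.38 to -0.02, unadjusted p = 0.0322, adjusted p = 0.241), which is between 0.77-fold and 0.984-fold. It was the 1 member with an unadjusted p under 0.05, as were 16.7% of all genes, and the 1 member whose groups did not overlap, as in 22.6% of all genes. YAP5 differed by -0.16 (SE 0.08, adjusted p = 0.395) and CIN5 by 0.15 (SE 0.09, adjusted p = 0.443). CAD1 differed by 0.15 (95% interval -0.09 to 0.39), YAP6 by 0.14, YAP7 by 0.13 and YAP3 by 0.02. The median over the members was 0.13 and that of all genes 0.03. The intervals of all 7 members lay between -0.38 and 0.45, so a rise beyond 1.36-fold lay outside every interval. The YAP6 signal, at 5.95 to 6.39 on the slt2 arrays, was close above that of SLT2 there, at 5.22 to 5.81. Its interval therefore bounds the signal and may not bound the transcript.

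Untreated slt2 and wild-type cells were compared next. Of the 7 members 0 were called, against 0.0184% of all genes, the 1 gene being SLT2. YAP5 was higher in slt2 by 0.47 (SE 0.17, 95% interval 0.08 to 0.85) with an unadjusted p of 0.0215 and an adjusted p of 0.9996 by limma. It was the 1 member with an unadjusted p under 0.05, against 3.76% of all genes, and its groups did not overlap, as in 26.8% of all genes. Without wild-type untreated array 2 the YAP5 difference was 0.34. YAP7 differed by 0.44 (SE 0.36), and by 0.03 without that array. YAP6 differed by -0.09 (SE 0.52), and by -0.66 without it. YAP1 differed by 0.16, and by -0.07 without it. CIN5 differed by -0.15, CAD1 by -0.06 and YAP3 by 0.10, each with an adjusted p of 0.9996.

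With arsenate in both genotypes 0 of 7 members were called, against 0.0367% of all genes. None had an unadjusted p under 0.05, against 33% of all genes, and none had groups that did not overlap, against 40.1%. The CAD1 difference, slt2 minus wild type, was -0.73 (SE 0.44, 95% interval -1.71 to 0.25, adjusted p = 0.233). YAP6 differed by -0.65 (SE 0.52, adjusted p = 0.357) and YAP7 by 0.68 (SE 0.36, 95% interval -0.13 to 1.49, adjusted p = 0.2). YAP7 was the 1 member to be called when a single array was left out: without wild-type arsenate array 3 its difference was 1.03 (adjusted p = 0.0376). The wild-type arsenate group then held arrays 1 and 2 alone. Array 1 correlated at 0.621 to 0.779 with the other arrays, and array 2 had a 3' minus 5' signal of 1.79. The share of all genes called in that fit is not given here. Without wild-type arsenate array 1 the CAD1 difference was -0.07 and that of YAP6 -0.15. Without wild-type arsenate array 2 these were -1.02 and -1.09, and YAP7 differed by 0.40. YAP1, YAP3, CIN5 and YAP5 differed by -0.15 to 0.15 on all arrays.

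The difference between the arsenate effects, slt2 minus wild type, was tested directly. None of the 7 members was called, against 0% of all genes. At an unadjusted p under 0.05 the count was 0 of 7, against 0.514% of all genes. The largest was CAD1 at -0.68 (SE 0.62, 95% interval -2.06 to 0.71, adjusted p = 0.711), followed by YAP6 at -0.55 (SE 0.73). Without wild-type arsenate array 1 these were -0.01 and -0.05. YAP5 gave -0.32 (SE 0.24), YAP1 -0.28 (SE 0.40) and YAP7 0.24 (SE 0.52). YAP3 and CIN5 were at -0.01 and -0.00. The comparisons share groups of arrays, so these values and those above are not independent of each other.

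**Figure D3:**
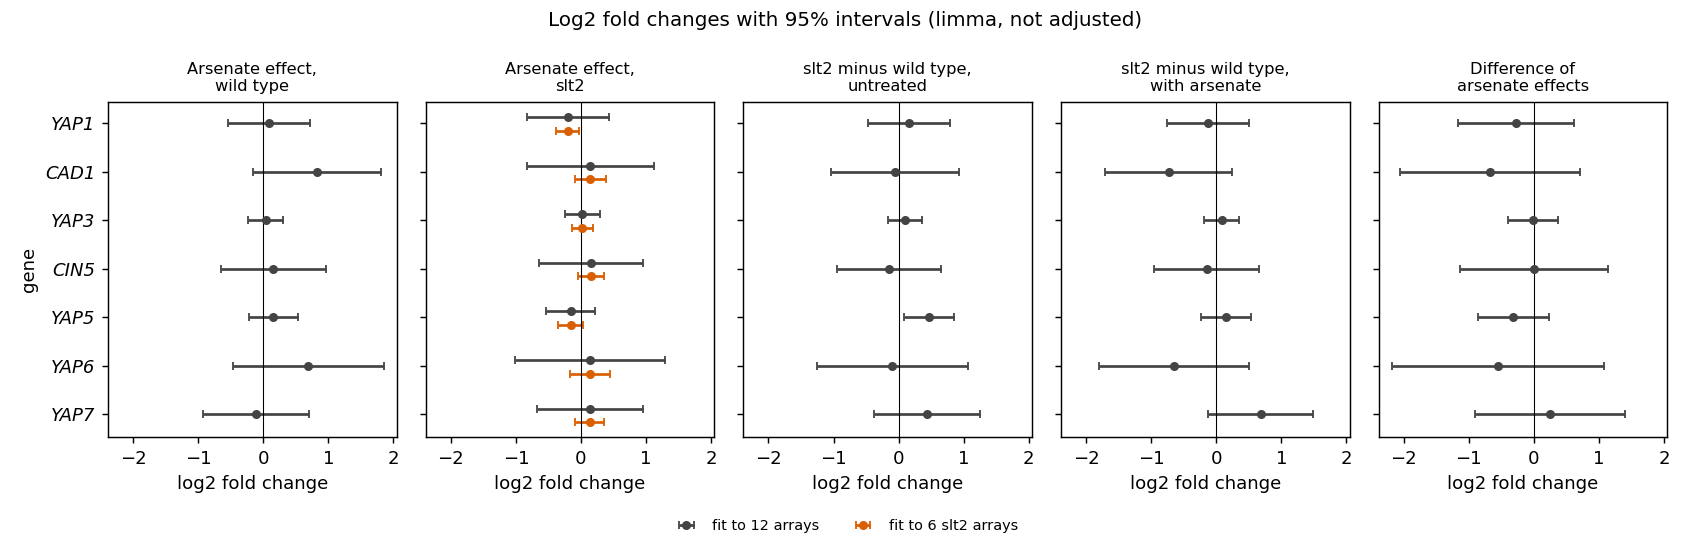
Log2 fold changes of the 7 members with unadjusted 95% intervals from limma, for the 5 comparisons; orange marks the fit to the 6 slt2 arrays alone. No member passes the adjusted threshold, and in the fit to the slt2 arrays the intervals of all 7 lie between -0.38 and 0.45.

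Genes that the members are known to regulate were read from the same fits. Of 17 targets of Yap1, 6 rose with arsenate in the slt2 arrays fitted alone and 0 fell. The background for a called rise was 1.91% of all genes. The list's median was 0.04, against 0.03 for all genes, with 0.25 the highest value among those not called. OYE3, an NADPH oxidoreductase, rose by 1.42 (SE 0.17, adjusted p = 0.012), from 6.70, 6.02 and 6.34 to 7.67, 7.75 and 7.92. GRE2, a stress-induced methylglyoxal reductase, rose by 1.17 (adjusted p = 0.023), from 10.19, 10.73 and 10.52 to 11.40, 11.87 and 11.67. ATR1, a multidrug exporter, rose by 1.16 (SE 0.09, adjusted p = 0.00282), from 9.42, 9.26 and 9.39 to 10.68, 10.52 and 10.36. These 3 genes had the largest rises of the list. Their groups did not overlap, as in 22.6% of all genes, which adds little to the calls for rises of this size. The drug exporter gene FLR1 rose by 0.64 (adjusted p = 0.0129), GSH1, the first enzyme of glutathione synthesis, by 0.44 (adjusted p = 0.0135), and YCF1, the vacuolar pump for glutathione conjugates, by 0.27 (adjusted p = 0.0414). The lowest value of the list was -0.18. In the fit to all 12 arrays 0 of the 17 were called. Only ATR1 of the 6 was called in each of the 6 fits that left out 1 slt2 array, YCF1 was called in 0 of them, and the number of Yap1 targets called ran from 1 to 5.

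Among 8 targets of the other members 3 rose and 1 fell in the slt2 arrays fitted alone, against 1.91% and 0.551% of all genes. The list median was 0.07 and that of all genes 0.03. FRM2, a nitroreductase-like gene listed for Cad1, rose by 6.04 (SE 0.30, adjusted p = 0.000379), from 8.25, 7.01 and 8.01 to 13.90, 13.70 and 13.81. CAD1 itself differed by 0.15 on the same arrays. In wild type FRM2 was at 7.75, 6.47 and 7.48 untreated and at 7.55, 10.84 and 13.80 with arsenate. Wild-type arsenate array 1, where CAD1 was high, was the array where FRM2 stayed inside its untreated range, and array 3 lay inside the range of the slt2 arsenate arrays. The wild-type FRM2 difference was 3.49 (SE 1.20, adjusted p = 0.299), or 5.08 without array 1 (adjusted p = 0.122), and the difference of the effects did not pass either (adjusted p = 0.711). For Cin5, GPP2, a glycerol phosphatase gene, rose by 0.76 (adjusted p = 0.0268) and DCS2 fell by 0.40 (adjusted p = 0.0452), while GCY1 was not called. YHB1, the gene that Yap7 represses, rose by 0.39 (SE 0.05, adjusted p = 0.0126), with YAP7 at 0.13. The iron genes listed for Yap5 did not pass: CCC1, the vacuolar iron importer, differed by 0.01, GRX4 by -0.10 and TYW1 by -0.01. FRM2 was called in each of the 6 fits without 1 slt2 array, YHB1 in 3, and GPP2 and DCS2 in 1. In the fit to all 12 arrays none of the 4 was called; FRM2 had an adjusted p of 0.337 there. In wild type no gene of either target list was called, against 0.0184% of all genes. OYE3 was at 6.96, 5.71 and 6.37 untreated there and at 9.90, 7.41 and 8.75 with arsenate. GRE2 was at 10.73, 10.23 and 10.45 untreated and at 12.55, 11.82 and 11.91 with arsenate. For both genes the wild-type groups did not overlap, as in 8.57% of all genes. ATR1 overlapped, at 9.38, 8.88 and 9.14 untreated and 8.88, 8.99 and 10.11 with arsenate. There the medians were 0.34 for the Yap1 targets, with 15 of 17 above 0, and 0.27 for the others, beside general stress genes at 1.88 in the same comparison. Without wild-type arsenate array 1 these medians were 0.25, 0.31 and 1.18. Without wild-type arsenate array 2 the median of the targets of the other members was -0.05, and without wild-type untreated array 2 it was 0.61. The part of that shift in the targets' values was not tested.

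**Figure D4:**
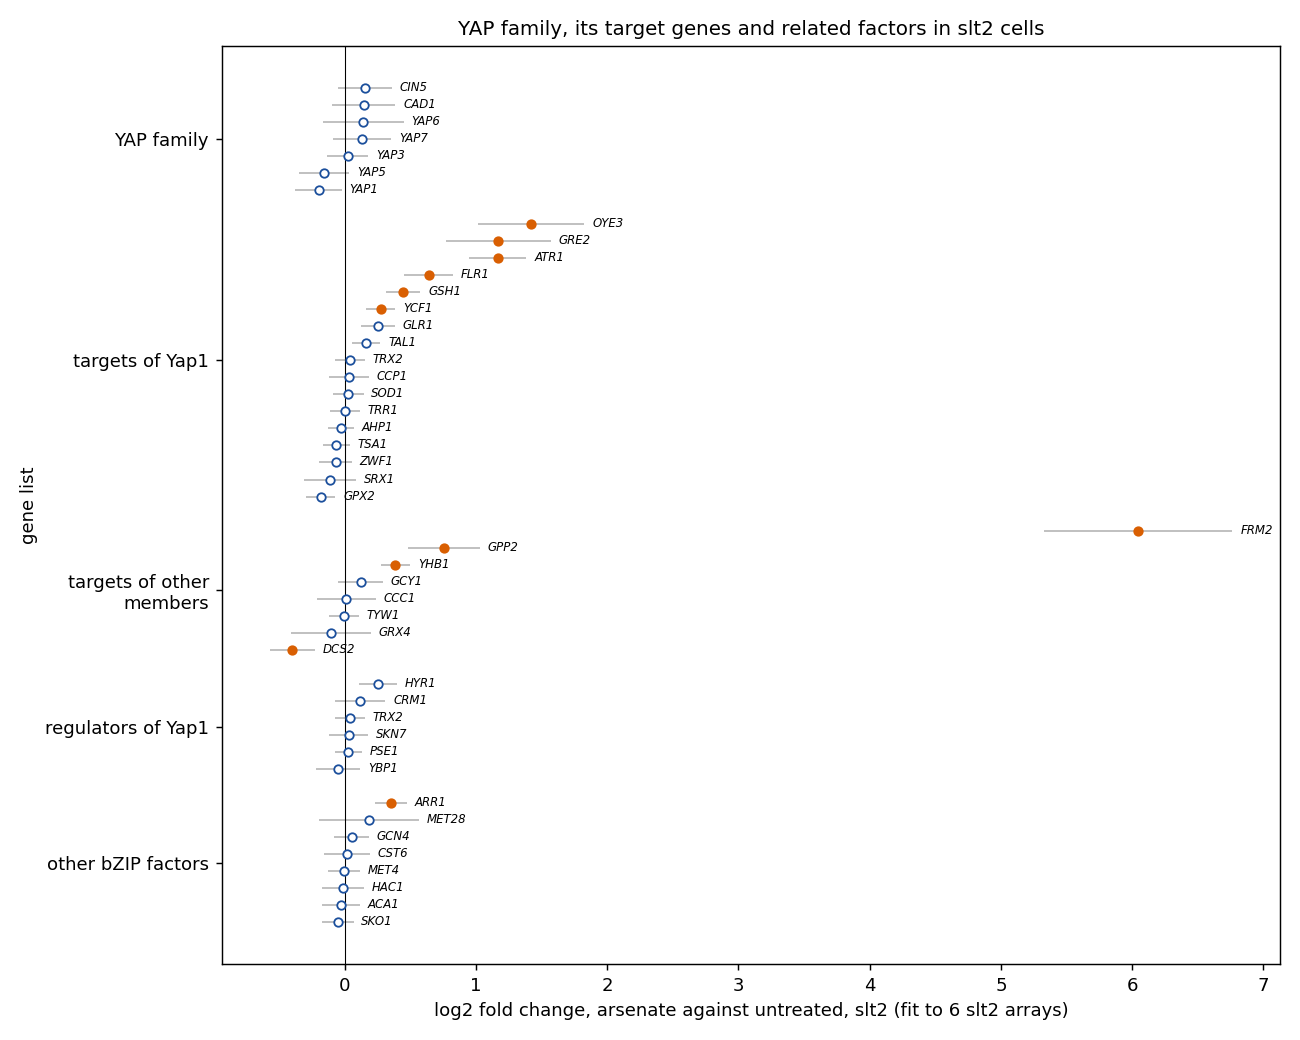
Log2 fold change with arsenate in slt2 cells, with 95% intervals, from the fit to the 6 slt2 arrays, for the YAP family, its targets, the regulators of Yap1 and other bZIP factors. Filled orange points pass the adjusted threshold; the 7 family members do not, while FRM2 lies at 6.04 and 6 Yap1 targets lie between 0.27 and 1.42.

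Proteins that control Yap1 or the stress factors showed no called transcript change in the slt2 arrays fitted alone. There 2.46% of all genes were called, a share that leaves room for few calls in lists this short. Of 6 genes of Yap1 regulation 0 were called, with a median of 0.03. The smallest p values were those of HYR1, the peroxidase that passes the oxidant signal to Yap1, at 0.25 (adjusted p = 0.106), and CRM1, the exportin, at 0.12 (adjusted p = 0.546). Of 6 regulators of stress factors and of CIN5 0 were called. MSN4, a general stress activator, was nearest at 0.62 (adjusted p = 0.0607). Of 8 other bZIP factors 1 rose, against 1.91% of all genes. It was ARR1, at 0.35 (SE 0.05, adjusted p = 0.023), from 10.02 ± 0.05 (SD, n = 3) to 10.38 ± 0.04. Its wild-type difference was 0.39 (SE 0.25, adjusted p = 0.318). It was 0.11 without wild-type arsenate array 1, 0.26 without wild-type untreated array 2 and 0.69 without wild-type arsenate array 2. The other 7, among them GCN4 and HAC1, were not called. General stress genes gave 0 called rises and 1 fall of 20 in slt2, against 1.91% and 0.551% of all genes. The fall was that of CTT1 at -0.57 (adjusted p = 0.0158), the lowest value of the list. Of the 20 genes 13 lay above 0, up to 1.03, and the list median was 0.26 against 0.03 for all genes.

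For each member the genes with the most similar profile were found by the root mean square difference of centred log2 signals over the 12 arrays. Only genes whose SD over the 12 arrays was at least that of the member divided by 2 were searched. The nearest genes were RPN8 for YAP1 at 0.106, YDL057W for CAD1 at 0.102, followed by LDH1 at 0.107 and ARA2 at 0.111, and THO2 for YAP3 at 0.044. They were BAP2 for CIN5 at 0.225, ERT1 for YAP5 at 0.118, YJL077W-B for YAP6 at 0.208, and JJJ2 for YAP7 at 0.168. YHB1, listed above as a target of Yap7, was the third nearest to YAP7 at 0.191. Both had their lowest signals on wild-type untreated array 2 and wild-type arsenate arrays 1 and 2. There YAP7 was at 7.47, 8.03 and 7.59, and YHB1 at 12.47, 12.28 and 12.27. The part of these arrays in the likeness of YAP7 and YHB1 was not tested. The search over the 6 slt2 arrays kept the same genes, chosen by their SD over all 12 arrays. Steadier genes were therefore not searched there either. Among the genes searched, CAD1 and YAP7 were each other's nearest over the 6 slt2 arrays at 0.021, with SDs of 0.152 and 0.138. Both were lowest on slt2 untreated array 2, whose array median was also low, and its part in this likeness was not tested. YAP1 was nearest to ALD3 at 0.024 there, and no other member had a family member among its 3 nearest genes.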

How the data were processed

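Total RNA of 12 yeast samples was hybridised to 1 Affymetrix array each. The authors deposited log2 signals, 1 per probe set; the submitters' processing notes name RMA and Affymetrix Expression Console. Versions, settings and whether 1 run covered all arrays: not given in the sources used here. RMA makes array distributions alike, so levels are relative. Of 5814 probe sets, 5498 had 1 gene symbol in the platform annotation and 316 had none; symbols were updated through gene numbers in a RefSeq gene table. For 47 genes with several probe sets the one with the highest mean was kept. Group means were fitted with limma 3.58.1 in R 4.3.3 (lmFit, eBayes) to all 12 arrays and, as a result of its own, to the 6 slt2 arrays; the procedure was tested on simulated data. P-values were adjusted over 5449 genes. The members, lists and tests were chosen with earlier results of these data known. Named genes are the members, markers, ARR1, up to 6 called genes per list (otherwise the 2 with the smallest p) and the 3 nearest genes per member; others were chosen after their values were seen. Promoter and protein sequences were not used here. Without counts, the number of arrays limits the precision.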

Additional observations from a re-analysis of the deposited data

How the results depend on the processing

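Alternatives were a replicate block, arrays centred on their median, quantile normalization, a minimum mean signal of 7 (which removes YAP6), only the arrays compared, 1 weight per group, an intensity trend, leaving out each array, and leaving out the 3 wild-type arrays that stand apart; leaving out both wild-type arrays numbered 2 was chosen after seeing the data. Of 764 recomputed member values, 707 kept their sign and side of the threshold, 56 changed sign without passing it and 1 passed. With arrays centred, YAP3 in slt2 was -0.015 in both fits and CAD1 between untreated genotypes 0.0029. With quantile normalization YAP3 was -0.029 in wild type and -0.0494 (12 arrays) or -0.0501 (6 arrays) in slt2, YAP5 in wild type -0.0901, and CAD1 between untreated genotypes 0.0206. Leaving out the 3 wild-type arrays (untreated array 2 and arsenate arrays 1 and 2) left array 3 alone in the wild-type arsenate group. The wild-type effects, which then rest on that 1 arsenate array, were -0.19 for YAP1, -0.057 for YAP3, -0.043 for YAP5 and 0.18 for YAP7. YAP1 between untreated genotypes was -0.0748, as it was without both wild-type arrays numbered 2. Without the 3 wild-type arrays, the genotypes with arsenate differed by 0.0246 for CAD1 and -0.0132 for YAP7. The difference of effects was 0.0605 for CAD1, 0.0796 for YAP3, 0.13 for YAP6 and -0.0469 for YAP7. Both sets of values rest on array 3 alone for arsenate-treated wild type. Leaving out 1 array at a time, the wild-type effect ran from -0.23 to 0.37 for YAP1, -0.0467 to 0.11 for YAP3, -0.13 to 0.67 for CIN5 and -0.51 to 0.17 for YAP7. The slt2 effect of YAP3 ran from -0.0256 to 0.0756 in both fits. Between untreated genotypes the values ran from -0.0748 to 0.28 for YAP1, -0.15 to 0.0496 for CAD1, -0.26 to 0.0303 for CIN5 and -0.66 to 0.24 for YAP6. With arsenate they ran from -0.41 to 0.19 for YAP1, -0.66 to 0.14 for CIN5 and 0.40 to 1.03 for YAP7, and the number of members called from 0 to 1. The difference of effects ran from -0.57 to 0.0274 for YAP1, -0.0831 to 0.0698 for YAP3, -0.52 to 0.285 for CIN5, -0.99 to 0.0172 for YAP6 and -0.038 to 0.65 for YAP7. With a replicate block 0 members were called in each comparison, and in the fit to the slt2 arrays 28 genes in place of 134, with 2 targets of Yap1 and 1 of the other members rising in place of 6 and 3. ATR1, GRE2 and FRM2 passed there, and GSH1, YCF1, FLR1, OYE3, GPP2, YHB1 and DCS2 did not, with adjusted p from 0.053 (FLR1) to 0.147 (DCS2). Deviations of arrays with the same number correlated between 0.04 and 0.47 for the untreated and arsenate-treated groups of the same genotype. Between genotypes they correlated between -0.17 and 0.31. Whether the numbers pair the samples is not given in the labels, and these values do not settle it. In the fit to all 12 arrays 0 targets of either list were called, in that fit's larger spread. Leaving out 1 slt2 array, the rises among targets of Yap1 ran from 1 to 5 and among those of the other members from 1 to 2. The genes called in the slt2 arrays numbered 41 to 107 with 1 array left out, 242 with centring, 354 with quantile normalization and 367 with an intensity trend. Other causes were not tested.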
